A study of Mus musculus with 12 samples.

Results

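The receptors for serotonin, dopamine, noradrenaline, acetylcholine and histamine were examined in the adult hippocampus of mice exposed to ethanol before birth. Members were chosen by gene symbol, with earlier results of these data known. They were the serotonin (*Htr1* to *Htr7*), dopamine (*Drd1* to *Drd5*), adrenergic (*Adra1*, *Adra2*, *Adrb*), muscarinic (*Chrm*), nicotinic (*Chrn*) and histamine (*Hrh*) receptor genes. This gave 46 genes, carried by 80 probes with an annotated symbol, of 19057 genes named by the probe annotation. Genes of these families that the annotation used here did not name were not analysed, and the adrenergic members were *Adra1b* and *Adra2c*. Hippocampal RNA of 12 male C57BL/6J mice aged 12 weeks, each on its own array, had been hybridised to Illumina MouseWG-6 v2.0 BeadChips. In the ethanol-exposed group (n = 6) the dams drank ethanol of their own accord from 0.5 until 8.5 dpc (days post-coitum) and water afterwards, whereas the dams of the control group (n = 6) drank water throughout. All mice of both groups were of the same inbred strain, with no transgene and no treatment after birth, and the 2 chips each held 3 mice of each group. The litter of each mouse was not given, so a p-value here measures the spread between these mice and not between litters.

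Receptors of these families read the transmitters that ascending fibres release in the hippocampus: serotonin from the raphe, noradrenaline from the locus coeruleus, acetylcholine mainly from the medial septum and histamine from the hypothalamus. Most of them act through G proteins, which raise or lower cyclic AMP or mobilise calcium. The nicotinic receptors and the receptor built from *Htr3a* are ion channels made of 5 subunits, and a nicotinic receptor is defined by its subunit mix. The α4 and β2 subunits (*Chrna4*, *Chrnb2*) form the main high-affinity nicotinic receptor of the brain, α5 (*Chrna5*) joins it as an accessory subunit, and α7 (*Chrna7*) can form a receptor by itself.

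The promoters of *Chrna4* and *Chrnb2* are shown because a probe of *Chrna4* held the smallest p-value among the receptors and *Chrnb2* encodes its partner. Each covers 300 bases around the start of the RefSeq gene model in GRCm38.p6, on the strand of the gene, at chr2:181039128-181039427 (minus strand) for *Chrna4* and chr3:89764583-89764882 (minus strand) for *Chrnb2*. Capitals mark CpG dinucleotides, the sites at which DNA is methylated.
Chrna4: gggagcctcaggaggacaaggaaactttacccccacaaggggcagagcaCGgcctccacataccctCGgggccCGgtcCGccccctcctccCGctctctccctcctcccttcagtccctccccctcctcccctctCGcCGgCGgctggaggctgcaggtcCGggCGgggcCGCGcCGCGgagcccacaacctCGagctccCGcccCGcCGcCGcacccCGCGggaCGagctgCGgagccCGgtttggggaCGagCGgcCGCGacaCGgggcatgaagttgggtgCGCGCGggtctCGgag
Chrnb2: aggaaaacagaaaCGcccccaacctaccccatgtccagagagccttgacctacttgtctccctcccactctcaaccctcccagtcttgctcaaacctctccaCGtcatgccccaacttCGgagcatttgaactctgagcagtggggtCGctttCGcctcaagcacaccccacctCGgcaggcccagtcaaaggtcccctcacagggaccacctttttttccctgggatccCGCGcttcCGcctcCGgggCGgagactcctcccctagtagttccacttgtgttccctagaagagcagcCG
The *Chrna4* promoter held 33 CpG dinucleotides and was 74.3% G and C, and 8.56% of 32851 RefSeq mouse promoters of the same length held at least as many. The *Chrnb2* promoter held 12 CpG dinucleotides at 59.0% G and C, a number reached by 39.6% of the promoters, whose median was 7. The motif GGGCGG, known as the GC box, was searched on both strands and itself contains a CpG. It matched 3 times in the *Chrna4* and 1 time in the *Chrnb2* promoter, and 35.7% of all promoters held it. A match describes the letters in the window only, and no methylation or binding was measured on these arrays.

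Of 45281 probes on the arrays, 18644 to 20268 per array were detected, that is, brighter than the negative control beads at a detection p under 0.05. Arrays of chip 1 were brighter, with median signals between 111.3 and 127.5, than those of chip 2, with 94.7 to 102.7. Of the marker genes with a probe, 6 of 6 of CA pyramidal cells and 3 of 5 of dentate granule cells passed the detection filter. *Tdo2* and *Stxbp6* of the dentate list were on 0 arrays. The filter was also passed by 5 of 6 neocortex, 5 of 8 thalamus and habenula and 3 of 4 striatal genes. Passing it therefore did not single out hippocampal tissue. Choroid plexus genes differed widely between mice, with a summed signal of 782 to 27851 in ethanol-exposed and 1107 to 46402 in control mice. Its summed median was 2224 in ethanol-exposed and 6332 in control mice. Of the 12 genes listed 7 were tested, and *Folr1*, *Kcne2*, *Otx2*, *Cldn2* and *Aqp1* did not pass the filter. All 8 tested probes had a negative difference, with a median of -0.76 on the log2 scale. On chip 2 alone the difference was negative only for *Ttr* and for both probes of *Igfbp2*. In the pyramidal, granule cell and choroid plexus lists 0 of 8, 0 of 4 and 0 of 8 probes passed an unadjusted p of 0.05.

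Signal for 20 of the 46 receptor genes was found in the hippocampus. A probe counted as present when it was detected on at least 6 of 12 arrays, and 27 of the 80 receptor probes (33.8%) were, against 42.6% of all probes on the array. For 15 of these genes a probe was detected in every mouse, 7 further genes were detected on 1 to 5 arrays, and 19 genes were on 0 arrays. The 42 receptor probes on 0 arrays had median signals of 79.85 to 104.7 over the 12 mice, within or below the range of the array medians, so RNA of those genes was not detectable at this background and is not shown to be absent.

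By family, 7 of 14 serotonin, 3 of 5 dopamine, 1 of 2 adrenergic, 3 of 5 muscarinic, 5 of 16 nicotinic and 1 of 4 histamine receptor genes passed the filter. The serotonin receptors *Htr1a*, *Htr1f*, *Htr3a*, *Htr4* and *Htr5b* were detected on 12 arrays, *Htr2a* on 11 and *Htr1b* on 8. *Htr7* was detected on 4 arrays and *Htr6* on 3, both of which raise cyclic AMP, and *Htr1d*, *Htr2b*, *Htr2c*, *Htr3b* and *Htr5a* on 0. None of the 3 probes of *Htr2c*, the serotonin receptor known for its high level in choroid plexus, was detected in any mouse, including those with high choroid plexus signal.

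The dopamine receptors *Drd1* and *Drd5*, both of which raise cyclic AMP, were detected in every mouse, *Drd2* on 7 arrays, *Drd4* on 1 and *Drd3* on 0. Of the adrenergic receptors *Adra2c* was detected by 2 of 3 probes and *Adra1b* by neither of its probes. The muscarinic receptors *Chrm1*, *Chrm2* and *Chrm3* were detected on 12 arrays, and *Chrm4* and *Chrm5* on 0. *Hrh3*, the histamine autoreceptor of nerve terminals, was detected in every mouse, *Hrh2* on at most 4 arrays, and *Hrh1* and *Hrh4* on 0.

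The nicotinic subunits detected in every mouse were *Chrna4*, *Chrna5* and *Chrnb2*. *Chrna7* was detected on 9 arrays by its better probe and *Chrnb1*, known as a subunit of the muscle receptor, on 8. The muscle subunit *Chrna1* was detected on at most 5 arrays, *Chrna10* on 2 and *Chrne* on 1. The remaining subunits, *Chrna2*, *Chrna3*, *Chrna6*, *Chrna9*, *Chrnb3*, *Chrnb4*, *Chrnd* and *Chrng*, were on 0 arrays. *Chrna5* lies next to *Chrna3* on chromosome 9, with *Chrnb4* beyond it, and of these neighbours only *Chrna5* was detected. *Htr3a*, on 12 arrays, likewise lies beside *Htr3b*, on 0 arrays, on the same chromosome.

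**Figure D1:**
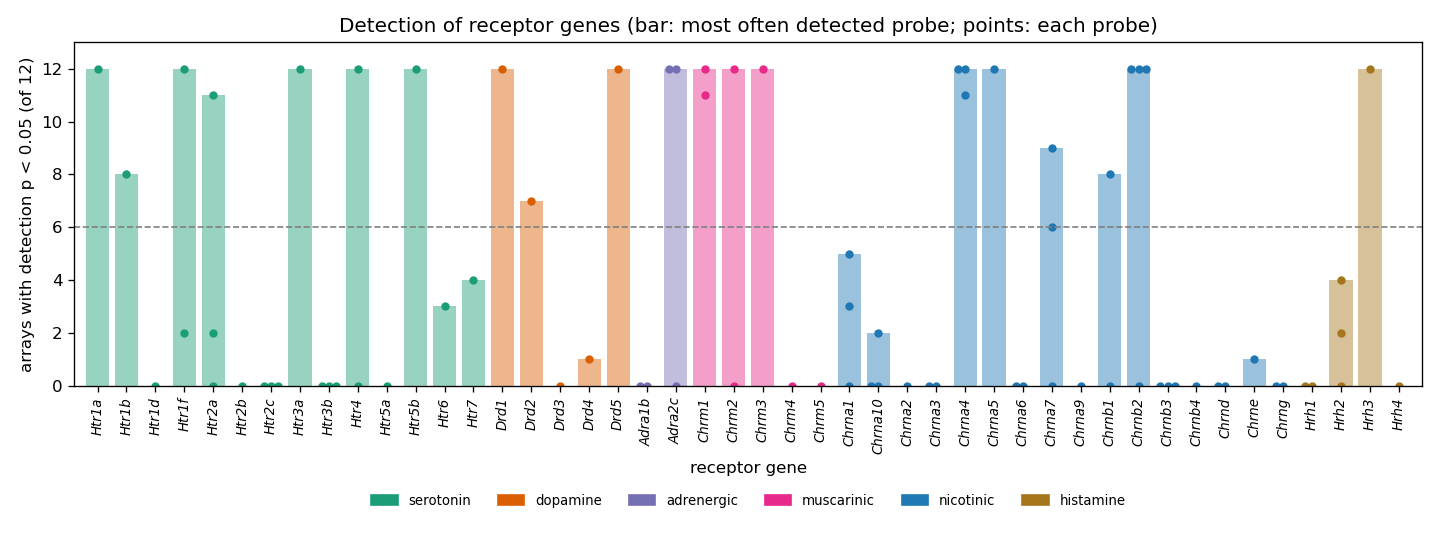
Number of arrays, of 12, on which each of the 46 receptor genes was detected. Bars give the most often detected probe of a gene and points each probe, coloured by family, and the dashed line marks the 6 arrays required for testing, which 20 genes reached. Probes of *Chrnb2* lie at both ends of the scale, 3 on 12 arrays and 1 on 0 arrays.

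Probes of a gene did not always behave alike. Of the 4 *Chrnb2* probes, 3 were detected in every mouse and ILMN_1235157 on 0 arrays. *Htr2a*, *Htr4*, *Adra2c*, *Chrm2*, *Chrna7* and *Chrnb1* also had a probe on 0 arrays beside at least 1 that passed the filter, so the count of detected genes rests on the better probe. A gene called undetected by a single probe, such as *Htr1d* or *Chrm4*, had no further probe to set beside it.

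To examine whether prenatal ethanol exposure altered these receptors in adulthood, the 27 detected probes were read from a fit over all 19288 detected probes. Nicotinic subunits held the 3 probes that were higher in ethanol-exposed mice at an unadjusted p under 0.05, 2 of *Chrna4* and 1 of *Chrna7*, and 0 receptor probes were lower. The *Chrna7* probe reached the detection filter mainly through the exposed mice, on 5 of their arrays and 1 control array, so it could be tested because it was higher there, and 2 probes remain without it. Over all probes tested 3.36% were higher and 3.08% lower at that threshold. After Benjamini-Hochberg adjustment 0% of all probes passed 0.05, and the adjusted p-values of the receptor probes lay between 0.718 and 0.999. No receptor probe differed by 1.5-fold. In bulk tissue, fewer cells of a type and less RNA per cell cannot be told apart.

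The median log2 fold change of the receptor probes was 0.06 and that of all probes 0.00. On chip 1 alone the receptor median was 0.13 and on chip 2 alone -0.02, so its sign depended on the chip. A positive difference was seen for 16 and a negative one for 11 of the 27, and for 51.6% of all probes. With 6 mice per group the 95% interval of a receptor probe reached 0.29 on the log2 scale to either side of its estimate at the median (range 0.16 to 0.41). Scaling each array by its median instead of quantile normalisation left 147 probes higher and 637 lower over all genes, against 648 and 594 here.

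**Figure D2:**
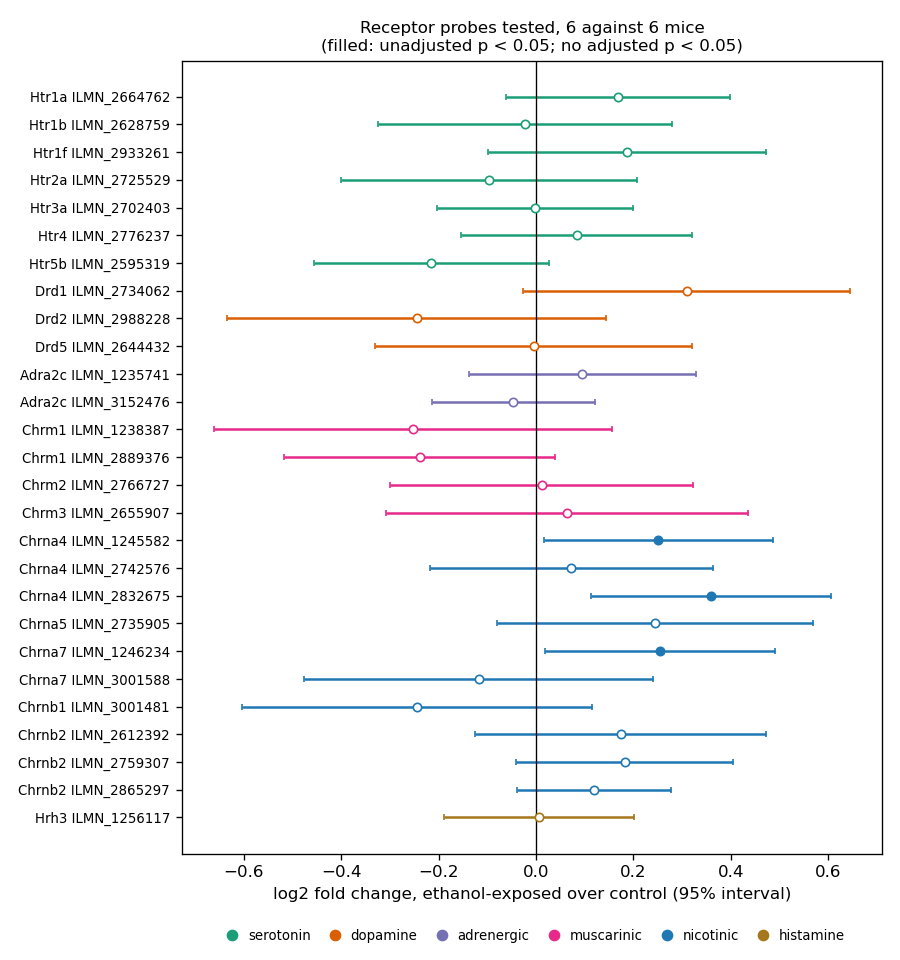
Log2 fold change of each of the 27 tested receptor probes, ethanol-exposed over control (n = 6 per group), with its 95% interval on the horizontal axis and probes named on the vertical axis. Filled points are the 3 probes with an unadjusted p under 0.05, all of nicotinic subunits, with estimates of 0.36, 0.25 and 0.26, and 0 probes passed adjustment. The filled *Chrna7* point is a probe detected on 5 ethanol-exposed arrays and 1 control array.

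Among the nicotinic subunits, 8 of 10 tested probes had a positive difference, with a median of 0.18 on the log2 scale, against 0.00 over all probes. The share of positive differences over all probes is given above. The 8 include *Chrna7* ILMN_1246234, whose entry into the test came mainly from the exposed mice, so the filter favoured its sign. These 10 probes measure 5 genes and are not independent of each other. *Chrna4*, the α4 subunit, was measured by 3 probes. On ILMN_2832675 the normalised log2 signal was 7.09 at the lowest, 7.31 at the median and 7.63 at the highest in ethanol-exposed mice, and 6.63, 7.05 and 7.22 in control mice. The groups overlapped only through ethanol-exposed replicate 4, which lay below 3 of the control mice, while the other 5 ethanol-exposed mice lay above every control mouse. The difference was 0.36 ± 0.11 (log2, SE; 95% interval 0.11 to 0.60), a 1.28-fold higher signal (p = 0.00716, adjusted p = 0.718; exact permutation test, two-sided, p = 0.0130). It was 0.36 on each of the chips taken alone, and the unadjusted p stayed between 0.00375 and 0.0191 when any single mouse was left out.

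The second *Chrna4* probe, ILMN_1245582, ranged from 6.95 to 7.52 (median 7.35) in ethanol-exposed and from 6.82 to 7.27 (median 7.04) in control mice. Above every control mouse lay 4 of the 6 ethanol-exposed mice, and replicate 1 of the exposed group, the lowest of its group here, lay among the lower controls. The difference was 0.25 ± 0.11 (log2, SE; p = 0.0383, adjusted p = 0.759; exact permutation test, two-sided, p = 0.0563). It was 0.07 on chip 1 and 0.44 on chip 2. Leaving out a single mouse kept the unadjusted p under 0.05 only for replicates 1 and 3 of either group, and it otherwise reached up to 0.0909.

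The dimmest *Chrna4* probe, ILMN_2742576, did not separate the groups. Its signal was 5.47 to 6.21 (median 5.56) in ethanol-exposed and 5.25 to 5.86 (median 5.62) in control mice, and it was detected on 11 arrays. A single exposed mouse, replicate 2, lay above all controls, and the other 5 lay within the control range. The difference was 0.07 (95% interval -0.22 to 0.36; adjusted p = 0.935), with 0.31 on chip 1 and -0.17 on chip 2, and it became -0.04 without ethanol-exposed replicate 2. The 3 probes of *Chrna4* thus did not order the mice alike, and which transcripts each probe reads was not examined here.

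*Chrnb2*, the β2 partner subunit, had 3 tested probes with positive differences and intervals that all included 0. ILMN_2612392 ranged from 7.43 to 7.89 (median 7.63) in ethanol-exposed and from 6.90 to 7.84 (median 7.49) in control mice, a difference of 0.17 ± 0.14 (log2, SE, adjusted p = 0.826). ILMN_2759307 ranged from 5.59 to 5.93 (median 5.82) and from 5.44 to 5.98 (median 5.50), a difference of 0.18 ± 0.10 (adjusted p = 0.771). ILMN_2865297 ranged from 7.90 to 8.15 (median 8.07) and from 7.82 to 8.06 (median 7.95), a difference of 0.12 ± 0.07 (adjusted p = 0.774; exact permutation test, two-sided, p = 0.0584). The groups overlapped on all 3, and on ILMN_2759307 the 4 lowest controls lay below every exposed mouse while the highest mouse of all was a control. All 3 probes were positive on each chip, between 0.10 and 0.22.

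*Chrna5*, the accessory α5 subunit, ranged from 6.30 to 6.99 (median 6.49) in ethanol-exposed and from 5.86 to 6.75 (median 6.26) in control mice. All 6 exposed mice lay above the control median, and the groups overlapped. The difference was 0.24 ± 0.15 (log2, SE, adjusted p = 0.776), 0.42 on chip 1 and 0.06 on chip 2.

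*Chrna7*, whose product is the α7 receptor, gave opposite signs on its tested probes. ILMN_1246234 passed the filter on exactly 6 arrays, of which 5 were of ethanol-exposed mice and 1 of a control mouse, so its entry into the test came almost wholly from the group in which it was higher. Its signal was 5.08 to 5.59 (median 5.33) in ethanol-exposed and 4.84 to 5.47 (median 5.09) in control mice, a difference of 0.26 ± 0.11 (log2, SE; p = 0.0360, adjusted p = 0.757; exact permutation test, two-sided, p = 0.0476). Without background correction the difference was 0.10 with an unadjusted p of 0.109, and the unadjusted p rose above 0.05 when ethanol-exposed replicate 3 or 4 or any of control replicates 1 to 4 was left out, up to 0.0871.

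The brighter *Chrna7* probe, ILMN_3001588, detected on 4 ethanol-exposed and 5 control arrays, ranged from 4.97 to 5.89 (median 5.70) and from 5.15 to 5.99 (median 5.72). The groups overlapped almost fully, with a difference of -0.12 (95% interval -0.48 to 0.24; adjusted p = 0.910). *Chrnb1*, the β subunit of the muscle receptor, was detected on 3 ethanol-exposed and 5 control arrays and differed by -0.24 (95% interval -0.60 to 0.12; adjusted p = 0.799).

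**Figure D3:**
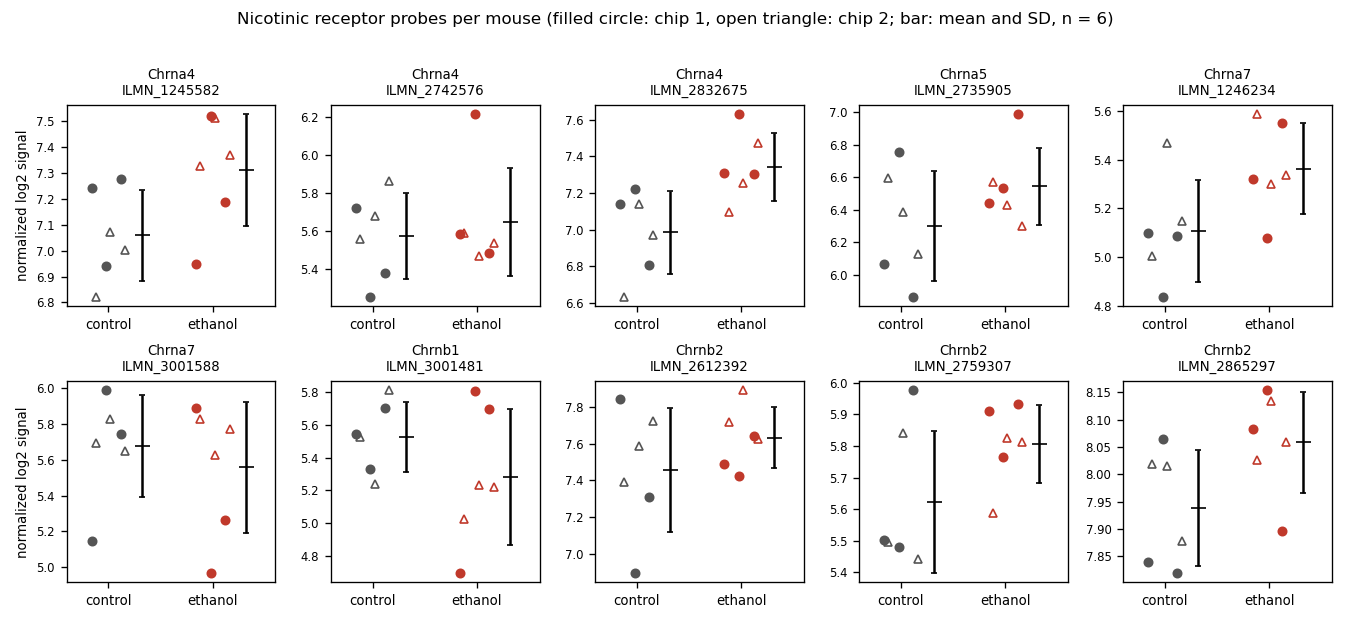
Normalised log2 signal of the 10 tested nicotinic probes in each mouse, control and ethanol-exposed, with filled circles for chip 1, open triangles for chip 2, and the mean and SD of each group (n = 6) beside the points. Each panel has its own vertical scale. On *Chrna4* ILMN_2832675 the exposed mice sit between 7.09 and 7.63 and the controls between 6.63 and 7.22.

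Some markers of tissue beside the hippocampus were also higher at a p under 0.05, as were 3.36% of all probes, and others were not. Of the 8 genes listed for thalamus and habenula, nuclei in which α4 and β2 subunits are known to be abundant, 5 were detected and all 6 of their probes had a positive difference, 3 at a p under 0.05. These were both probes of *Slc17a6*, the vesicular glutamate transporter VGLUT2 that the hippocampus also makes, with a difference of 0.67 on each (adjusted p = 0.718 and 0.720), and *Tac2*, a neuropeptide gene of the habenula, with 0.49 (adjusted p = 0.718). The platform annotation gives both of the former probes to *Slc17a6*, but the study's own listing names ILMN_2922321 under *Tshz2*, and without it *Slc17a6* rests on ILMN_2773047. By qPCR the paper reports raised *Slc17a6* in the hippocampus of further cohorts of exposed males. The summed signal of the list was 2286 to 3618 (median 2894) in ethanol-exposed and 1346 to 2364 (median 2169) in control mice. For *Slc17a6* this sum takes the brighter probe, ILMN_2922321, at a median log2 signal of 11.16 in ethanol-exposed and 10.69 in control mice. *Prkcd*, the next brightest gene of the list, lay at 8.22 and 8.04, so the sum mostly follows ILMN_2922321. *Prkcd*, *Tcf7l2* and *Gpr151* differed by 0.08, 0.03 and 0.06, and the defining transcription factors *Lef1*, *Gbx2* and *Pou4f1* were on 0 arrays. The part of other tissue in the *Chrna4* difference was not tested.

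Several glial probes had a negative difference. In the astrocyte list 3 of 11 probes were lower at a p under 0.05 and 0 higher, led by *Gfap*, the filament protein of astrocytes, at -0.25 on each of its probes. The remaining probe was *Aldoc* ILMN_3160137, at -0.17. Over all probes 3.08% were lower at that threshold. The astrocyte list was not uniform: *Sox9*, a transcription factor of astrocytes, differed by 0.15 and 0.12 on its probes, and *Slc1a3* and *Gja1* by -0.01 and -0.00. Its summed signal overlapped, with 48618 to 54017 in ethanol-exposed and 50972 to 56143 in control mice. In the microglial list 3 of 13 probes were lower and 0 higher, and its summed signal was 5972 to 6562 in ethanol-exposed and 6443 to 7838 in control mice. The lower probes were ILMN_1219764 and ILMN_2770968 of *Fcrls* (-0.29 and -0.19) and *C1qc* (-0.23). Of the 13 probes 11 had a negative difference, among them *Cx3cr1* with -0.04. The positive 2 were *P2ry12* with 0.13 and *Tmem119* with 0.02. The part of glial content in the receptor values was not tested.

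Muscarinic receptors showed no probe at a p under 0.05. *Chrm1*, the Gq-coupled receptor of hippocampal pyramidal cells, had the lower signal in ethanol-exposed mice on both probes. ILMN_2889376 ranged from 5.44 to 6.19 (median 5.75) in ethanol-exposed and from 5.82 to 6.33 (median 5.98) in control mice. Only 1 exposed mouse, replicate 5, lay above the control median, and the groups overlapped. The difference was -0.24 ± 0.13 (log2, SE, adjusted p = 0.771; exact permutation test, two-sided, p = 0.117), -0.25 on chip 1 and -0.23 on chip 2.

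ILMN_1238387, the second *Chrm1* probe, ranged from 5.34 to 6.04 (median 5.50) and from 5.07 to 6.16 (median 6.09). No exposed mouse lay above the control median, but the lowest mouse of all was control replicate 2, on whose array the probe was not detected. The difference was -0.25 ± 0.19 (adjusted p = 0.819), and without control replicate 2 it was -0.41, with an unadjusted p of 0.0166. Without control replicate 6 the difference was -0.19, with an unadjusted p of 0.353. Signal on this probe also differed between the chips, by 0.41 higher on chip 2 (adjusted p = 0.251).

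*Chrm2*, the Gi-coupled muscarinic receptor, ranged from 6.05 to 7.00 (median 6.43) in ethanol-exposed and from 6.35 to 6.65 (median 6.40) in control mice. The exposed mice lay on both sides of the narrow control range, 3 below and 3 above it, and the difference was 0.01 (95% interval -0.30 to 0.32). *Chrm3*, which signals through Gq, ranged from 8.39 to 8.96 (median 8.88) and from 7.95 to 9.17 (median 8.80), with a difference of 0.06 (95% interval -0.31 to 0.43). Control replicate 3 was the lowest of all 12 mice, and without it the difference was -0.09.

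Of the serotonin receptors, 3 of 7 probes had a positive difference and the median was -0.00. *Htr1a*, the Gi-coupled receptor of pyramidal and granule cells, ranged from 8.56 to 9.27 (median 8.87) in ethanol-exposed and from 8.58 to 8.87 (median 8.70) in control mice. Exposed mice lay at both ends, with replicate 1 the lowest of all and replicates 2, 3 and 4 above every control. The difference was 0.17 ± 0.11 (log2, SE, adjusted p = 0.782), 0.31 on chip 1 and 0.03 on chip 2.

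*Htr5b*, a receptor gene that is functional in mice and a pseudogene in humans, ranged from 8.23 to 8.83 (median 8.35) in ethanol-exposed and from 8.49 to 8.83 (median 8.64) in control mice. Below every control lay 4 exposed mice, whereas replicates 3 and 6 lay within the control range. The difference was -0.21 ± 0.11 (log2, SE; 95% interval -0.46 to 0.03; adjusted p = 0.759; exact permutation test, two-sided, p = 0.0974), and the unadjusted p was 0.0110 without ethanol-exposed replicate 6 and 0.0456 without replicate 3. The unadjusted p rose to 0.160 without ethanol-exposed replicate 1.

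*Htr1f*, another Gi-coupled receptor, ranged from 5.96 to 6.44 (median 6.11) in ethanol-exposed and from 5.65 to 6.29 (median 6.00) in control mice. The groups overlapped, with a difference of 0.19 (95% interval -0.10 to 0.47; adjusted p = 0.808) that was 0.39 on chip 1 and -0.02 on chip 2. *Htr4*, which raises cyclic AMP, ranged from 5.94 to 6.57 (median 6.37) and from 6.02 to 6.51 (median 6.22), with a difference of 0.08 (95% interval -0.15 to 0.32). Replicate 4 of the exposed group was the lowest of all mice on this probe, and the difference was 0.27 on chip 1 and -0.11 on chip 2.

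*Htr3a*, the ion channel subunit carried by a class of interneurons, ranged from 7.16 to 7.46 (median 7.38) in ethanol-exposed and from 7.08 to 7.55 (median 7.38) in control mice. The exposed mice lay wholly within the control range, and the 95% interval of the difference was -0.20 to 0.20. *Htr2a*, a Gq-coupled receptor, and *Htr1b*, a receptor of nerve terminals, differed by -0.10 and -0.02, with intervals of -0.40 to 0.21 and -0.32 to 0.28.

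*Drd1*, the dopamine receptor that raises cyclic AMP, ranged from 6.40 to 7.39 (median 6.92) in ethanol-exposed and from 6.31 to 7.03 (median 6.62) in control mice. Of the exposed mice 5 lay above the control median and replicate 3 lay near the bottom of the control range. The difference was 0.31 ± 0.16 (log2, SE, adjusted p = 0.759; exact permutation test, two-sided, p = 0.108), with 0.33 on chip 1 and 0.29 on chip 2. Without ethanol-exposed replicate 3 it was 0.42, and without control replicate 3, the highest control, 0.39, both with an unadjusted p under 0.05. Without ethanol-exposed replicate 2, the highest mouse, it fell to 0.22, with an unadjusted p of 0.165. Of 4 striatal marker genes with a probe, 3 were detected, with a summed signal of 775 to 956 in ethanol-exposed and 693 to 939 in control mice. Of the striatal genes, *Rgs9* (0.17; exact permutation test, two-sided, p = 0.0433) and *Penk*, which encodes enkephalin (0.20; exact permutation test, two-sided, p = 0.0693), had all 6 exposed mice above the control median, while *Tac1* differed by -0.01. The part of striatal tissue in the *Drd1* difference was not tested.

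*Drd5*, the second receptor of this kind, ranged from 6.05 to 6.75 (median 6.35) in ethanol-exposed and from 6.00 to 6.79 (median 6.36) in control mice, and the exposed mice lay within the control range. Its difference was -0.00 (95% interval -0.33 to 0.32). *Drd2*, which lowers cyclic AMP, was detected on 3 ethanol-exposed and 4 control arrays and differed by -0.25 (95% interval -0.63 to 0.14; adjusted p = 0.813), and the highest signals, 6.19 and 5.99, were of control replicates 1 and 2.

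*Adra2c*, the Gi-coupled receptor for noradrenaline, was measured by 2 tested probes of opposite sign. ILMN_1235741 ranged from 7.92 to 8.20 (median 8.06) in ethanol-exposed and from 7.59 to 8.36 (median 7.94) in control mice, a difference of 0.09 (95% interval -0.14 to 0.33). ILMN_3152476 ranged from 8.76 to 8.97 (median 8.86) and from 8.74 to 9.13 (median 8.88), a difference of -0.05 (95% interval -0.21 to 0.12). On both probes all exposed mice lay within the range of the controls.

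*Hrh3*, the histamine receptor that curbs transmitter release, ranged from 7.84 to 8.19 (median 8.05) in ethanol-exposed and from 7.83 to 8.27 (median 8.07) in control mice. The exposed mice again lay within the control range, with a difference of 0.01 (95% interval -0.19 to 0.20).

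**Figure D4:**
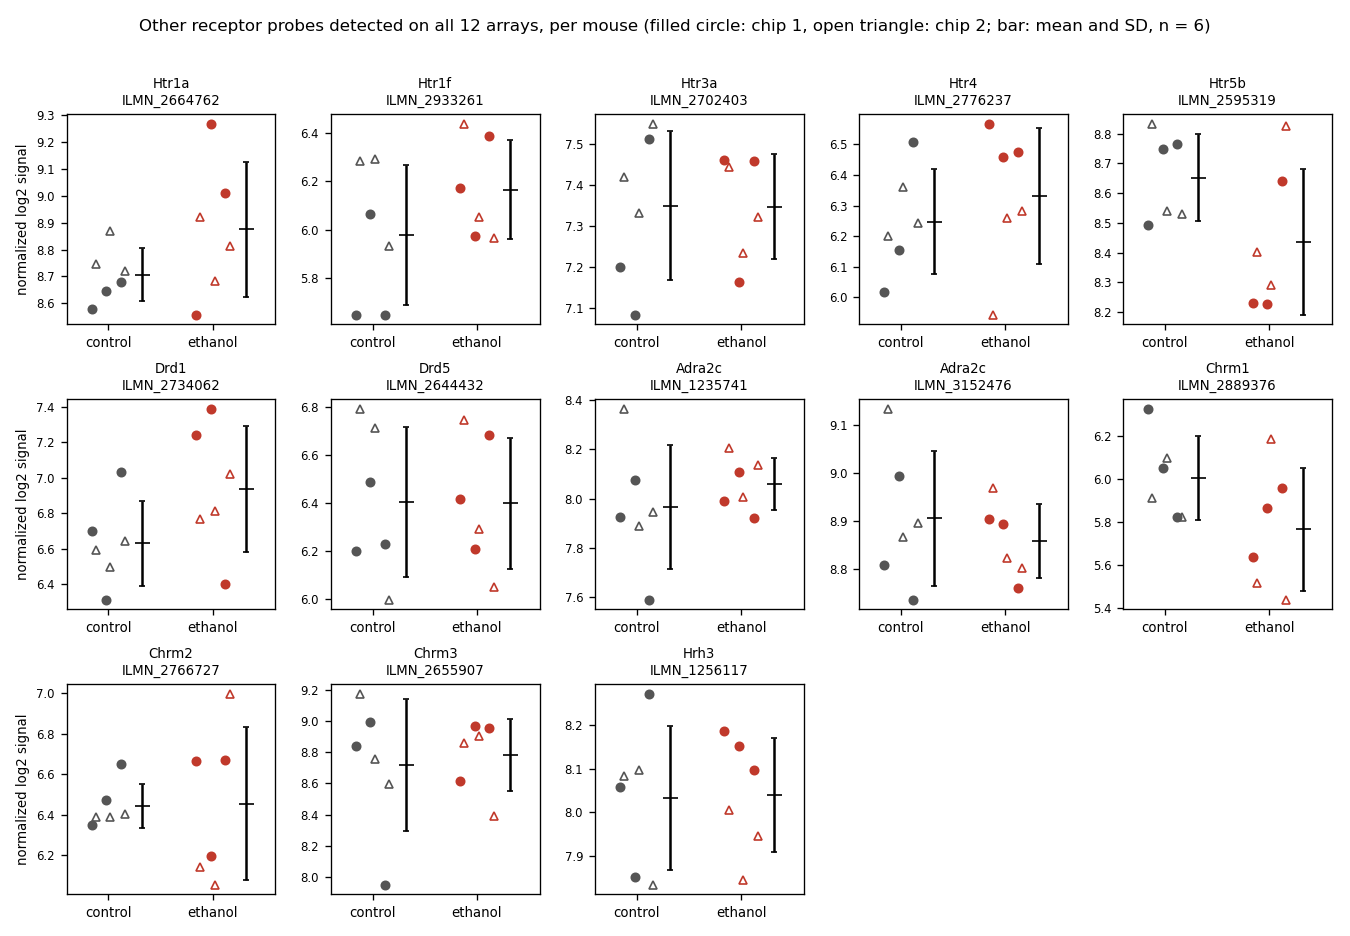
Normalised log2 signal in each mouse for the 13 serotonin, dopamine, adrenergic, muscarinic and histamine receptor probes detected on all 12 arrays, with filled circles for chip 1, open triangles for chip 2, and the mean and SD of each group (n = 6). Panels have separate vertical scales. On *Htr5b* 4 exposed mice lie below every control, and on *Hrh3*, *Htr3a* and *Adra2c* the exposed mice lie within the control range.

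Receptor probes scattered more between mice than all probes did at the median. The residual SD was 0.25 at the median over the 27 probes (log2; range 0.10 to 0.38) and 0.19 over all probes tested. Probes were not matched for signal strength, and many receptor probes were dim. Whether receptors scatter more than other genes of like signal was therefore not tested. The chip changed few of them: 2 probes differed between the chips at a p under 0.05, *Chrm1* ILMN_1238387 and *Htr2a* (-0.28 on chip 2, adjusted p = 0.316), and 0 after adjustment, while 15.1% of all probes did so at a p under 0.05. The difference between the groups had the same sign on both chips for 17 of the 27 receptor probes and for 53.0% of all probes. Each chip compared 3 mice with 3.

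**Figure D5:**
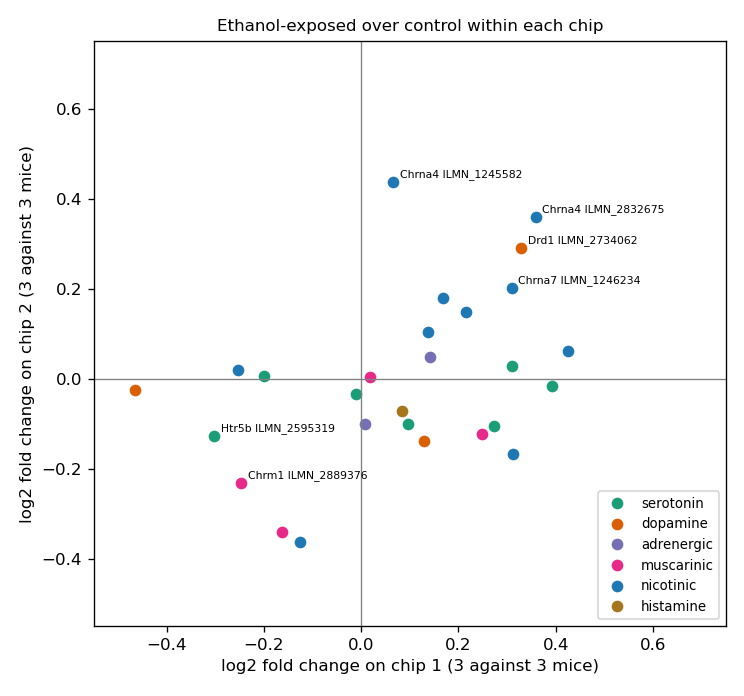
Log2 fold change, ethanol-exposed over control, on chip 1 (horizontal axis) and chip 2 (vertical axis) for the 27 receptor probes, each from 3 against 3 mice, coloured by family. Points in the upper right and lower left have the same sign on both chips, 17 in all. *Chrna4* ILMN_2832675 lies at 0.36 on both axes, and ILMN_1245582 of the same gene at 0.07 and 0.44.

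The genes that make, carry and break down the transmitters were detected only in part. Most of the transmitters reach the hippocampus in fibres whose cell bodies, and most of whose RNA, lie elsewhere. Of 17 monoamine and histamine genes with a probe 6 were detected, and 8, among them *Th*, *Dbh*, *Slc6a4* and *Slc18a2*, were on 0 arrays. 0 of their 11 probes were higher and 1 lower at a p under 0.05, against 3.36% and 3.08% of all probes. Their median log2 fold change was -0.18, against 0.00 over all probes. These 11 probes measure 6 genes, several of them *Slc29a4* and *Hdc*, and are not independent of each other. The lower probe was ILMN_2525872 of *Slc29a4*, a monoamine transporter of the plasma membrane, with 4.99 to 5.78 (median 5.15) in ethanol-exposed and 5.33 to 6.31 (median 5.62) in control mice and a difference of -0.49 (adjusted p = 0.720; exact permutation test, two-sided, p = 0.0368). This was the dimmest of the 3 tested *Slc29a4* probes and was detected on 8 arrays. How these were split between the groups was not counted. The lowest control mouse, at 5.33, lay above the exposed median of 5.15. Its entry into the test may thus rest mainly on the control mice, in which case the filter favoured its sign. The other two differed by -0.19 (adjusted p = 0.773) and, on the brightest, by -0.18 (adjusted p = 0.846).

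*Hdc*, which makes histamine from histidine, was detected in every mouse and ranged from 6.42 to 7.82 (median 7.45) in ethanol-exposed and from 7.24 to 9.02 (median 7.81) in control mice. The groups overlapped, and the difference of -0.58 (adjusted p = 0.759) was -1.15 on chip 1 and -0.00 on chip 2. The dimmer *Hdc* probe differed by -0.30 (adjusted p = 0.851), with -0.72 on chip 1 and 0.11 on chip 2. *Slc29a4* ILMN_2525872 was likewise further apart on chip 1, at -0.77, than on chip 2, at -0.21. All 8 tested choroid plexus probes, which cover 7 of the 12 genes listed, had a negative difference (median -0.76). *Ttr*, the transthyretin gene of choroid plexus, differed by -1.90, with -3.45 on chip 1 and -0.35 on chip 2. On chip 2 alone both *Igfbp2* probes were negative too. The others were positive there: *Clic6* 0.98, *Ecrg4* 0.46, *Sostdc1* 0.41, *Kl* 0.20 and *Calml4* 0.09. The part of choroid plexus tissue in the *Hdc* and *Slc29a4* values was not tested.

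Of 7 acetylcholine genes, *Ache*, which breaks acetylcholine down at the synapse, and *Bche* were detected and differed by -0.01 and 0.01. *Chat*, *Slc5a7* and *Slc18a3*, the markers of cholinergic cell bodies, were on 0 arrays.

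All 7 chaperones and Ly6 modulators of nicotinic receptors with a probe were detected, and 0 of their 13 probes passed a p of 0.05. *Ric3*, a chaperone needed for α7 assembly, had the smallest p on its dimmest probe, with a difference of -0.16 (adjusted p = 0.819), and its brighter probes differed by 0.05 and -0.00. Of the Ly6 family that binds nicotinic subunits, *Lypd1* differed by 0.09 and -0.04, *Lypd6* by 0.09 on both probes and *Lypd6b* by 0.11.

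Of 10 G protein alpha subunits 9 were detected, with 0 of 17 probes higher and 1 lower. This was ILMN_2751072 of *Gna11*, a subunit through which Gq-type receptors mobilise calcium, with 10.48 to 10.68 (median 10.63) in ethanol-exposed and 10.74 to 10.97 (median 10.80) in control mice. The groups did not overlap, and the difference was -0.22 ± 0.07 (log2, SE; p = 0.00580, adjusted p = 0.718; exact permutation test, two-sided, p = 0.00216, the smallest that 6 against 6 mice can give). Both *Gfap* probes gave the same exact p. How many of the 19288 probes tested kept the groups apart was not counted, so the separation is not shown to be unusual among them. The brighter *Gna11* probe, ILMN_1254131, ranged from 11.38 to 11.49 and from 11.36 to 11.60, with overlapping groups and a difference of -0.05 (adjusted p = 0.884). *Gnaq*, the related subunit, differed by 0.15, -0.04 and -0.01 on its 3 tested probes. *Gna14* differed by 0.33 on its only tested probe and *Gnai2* by -0.14 and -0.10 on both of its own, and the adjusted p-values of *Gnaq*, *Gna14* and *Gnai2* were 0.759 or above.

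Of 12 receptor kinases, arrestins and downstream regulators with a probe 11 were detected, with 1 of 19 probes higher and 0 lower. On ILMN_2666622 *Rgs2*, which speeds the shut-off of Gq, ranged from 5.87 to 6.41 (median 6.18) in ethanol-exposed and from 5.61 to 6.14 (median 6.02) in control mice, a difference of 0.26 ± 0.12 (log2, SE, adjusted p = 0.759; exact permutation test, two-sided, p = 0.0736). The groups overlapped, and the dimmer *Rgs2* probe differed by 0.13 (adjusted p = 0.903). *Rgs9* and *Grk5* differed by 0.17 and -0.32, each with an adjusted p of 0.759. *Ppp1r1b*, a relay of dopamine signalling, differed by -0.30, -0.12 and, on its brightest probe, -0.08, with adjusted p-values of 0.759, 0.879 and 0.923.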

How the data were processed

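Hippocampal RNA of 12 mice was measured on 12 single-colour arrays. The authors summarised the beads in GenomeStudio 1.9.0 and deposited a table of probe intensity before normalisation together with a detection p-value for each probe and array, and a table of intensity after quantile normalisation. The genome build behind the probes was not given in the sources used here. Probe symbols came from the platform annotation: of 45281 probes 34885 had 1 symbol and 18 several, 34807 were matched by gene identifier to the RefSeq gene table and 0 symbols changed.

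The intensities before normalisation were background corrected in limma 3.58.1 (R 4.3.3) with the normexp model, using the detection p-values and an offset of 16, then quantile normalised and put on the log2 scale. A probe entered the tests if its detection p was below 0.05 on 6 or more of the 12 arrays, which left 19288, for 10835 genes. Groups were compared with lmFit and eBayes on group alone, and p-values adjusted by Benjamini-Hochberg over all probes tested. Every p-value without a named test is from that fit, and unadjusted unless called adjusted. Single probes also had an exact permutation test (two-sided, difference in means, all 924 splits of the mice). Differences are ethanol-exposed minus control. The steps were tested on simulated data. Summed signals of marker lists are on the linear scale after normalisation, with the brightest tested probe of each gene. The number of arrays and the signal over background limit the precision.

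Each receptor gene was named with its detection. Values by group were given for probes with a p under 0.05, genes with a probe on all 12 arrays and genes with several tested probes; of the pathway lists (transmitter synthesis and transport, nicotinic chaperones, G proteins, regulators), for members with a p under 0.05 and up to 3 others with the smallest p. The members, lists and this rule were chosen with earlier results of these data known. Marker lists of interneurons, neocortex, and endothelial and meningeal cells were also read: 0 of 8, 0 of 7 and 0 of 10 probes were higher at a p under 0.05, and 0, 1 and 0 lower. Alternatives were no background correction, an offset of 50, median scaling, the authors' normalised table, other detection filters, chip or replicate number as a block, each chip alone, no variance moderation and leaving out each mouse. Coordinates of promoters are those of RefSeq in GRCm38.p6, used only for sequence and for the order of genes.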

Additional observations from a re-analysis of the deposited data

Results flagged for a closer look

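Within each group of 6 mice, the highest and the lowest signal of each of the 27 receptor probes was compared with the nearest other mouse. In 2 of 54 groups the gap was large against the range of the group, which is 3.7%, where chance gives about 1 in 20. On *Chrna4* ILMN_2742576, ethanol-exposed replicate 2 had a log2 signal of 6.21, while the other exposed mice lay between 5.47 and 5.59. The same mouse was also the highest of the exposed group on the other *Chrna4* probes, at 7.63 and 7.52. On *Drd2*, ethanol-exposed replicate 3 had a log2 signal of 5.72, with the others between 5.13 and 5.30, on a probe that was detected in 3 of the 6 exposed mice.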

How the results depend on the processing

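Of 289 values of single receptor probes under alternatives other than leaving out a mouse, 263 kept their direction and their side of an unadjusted p of 0.05, and 12 changed sign, none of them with a p under 0.05 in the primary analysis. Chip 2 alone gave *Htr1f* -0.0173, *Htr2a* 0.00617, *Htr4* -0.11, *Chrm3* -0.12, *Chrna4* ILMN_2742576 -0.17, *Chrna7* ILMN_3001588 0.0182 and *Hrh3* -0.0726. Chip 1 alone gave *Htr3a* 0.10, *Drd5* 0.13 and *Adra2c* ILMN_3152476 0.00755, and median scaling gave *Chrm2* -0.0560 and *Hrh3* -0.0499. The unadjusted p passed above 0.05 in 11 values, among them *Chrna4* ILMN_2832675 on chip 1 alone (0.0515) and *Chrna4* ILMN_1245582 (0.221) and *Chrna7* ILMN_1246234 (0.0807) under median scaling. With each mouse left out in turn the sign changed within ranges of -0.0937 to 0.0612 (*Htr1b*), -0.0548 to 0.0379 (*Htr3a*), -0.0855 to 0.0733 (*Drd5*), -0.0973 to 0.0915 (*Chrm2*), -0.0904 to 0.154 (*Chrm3*), -0.0412 to 0.130 (*Chrna4* ILMN_2742576), -0.224 to 0.000286 (*Chrna7* ILMN_3001588) and -0.0337 to 0.0540 (*Hrh3*). The 3 receptor probes higher at a p under 0.05 became 1 under median scaling, 1 on chip 1 alone and 7 without a detection filter, and 1 to 4 with a mouse left out; the 0 lower became 1 on chip 2 alone and 0 to 1 with a mouse left out. Of the pathway probes, the 1 higher became 0 with an offset of 50, with median scaling and on chip 1 alone, 2 on probes detected on all 12 arrays, with the chip as a block and on chip 2 alone, 3 without a filter, and 0 to 3 with a mouse left out. The 2 lower became 4 under median scaling and on chip 1 alone, 5 without a filter, 0 on chip 2 alone, and 2 to 5 with a mouse left out. Over all probes, the 648 higher became 147 under median scaling, 1300 without a filter and 428 on chip 2 alone, and the 594 lower became 1177 without a filter. The cause of these moves was not tested, except that settings with fewer mice or more probes change what can be counted. No setting left a probe past an adjusted p of 0.05. Replicate numbers are shared by the groups but did not pair the mice: the correlation of same-numbered mice was -0.02 to 0.21, and 2 of 6 numbers correlated best with themselves. With the replicate number as a block, 2 receptor probes were higher, and *Chrna4* ILMN_1245582 had an unadjusted p of 0.0744. At a detection p under 0.01 on at least 6 arrays 16 receptor genes passed, and signal close to the negative controls limits the dimmer probes.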
